A study of Homo sapiens with 2 samples.

Results

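The serine/arginine-rich (SR) splicing factors were described as 10 genes, SRSF1 to SRSF7 and SRSF9 to SRSF11, out of 52402 gene symbols in the count tables. They were matched by symbol, and every one was found on a single row. The genes were chosen by their levels and ratios in the same 2 libraries described here, so these values are a description. RNA was sequenced from DLD1, a human colorectal adenocarcinoma cell line, in 1 library labelled HERV-R knockout (KO) and 1 library labelled wild type (WT), here the control. HERV-R is a human endogenous retrovirus, and the study's title asks what its envelope gene does for tumour traits of colorectal cancer cells. Both libraries carry one treatment text, in which Cas9 and guide RNA vectors were transfected and colonies were selected with hygromycin. The sources used here do not say whether the control received a guide, nor whether the cells sequenced were clonal.

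SR proteins bind short exonic sequences through RNA recognition motifs and recruit the splicing machinery through tails of arginine-serine repeats, the RS domain. Kinases of the SRPK and CLK families phosphorylate these tails, and several SR proteins also accompany mRNA to the cytoplasm. Many SR genes hold highly conserved "poison" exons, whose inclusion sends the transcript to nonsense-mediated decay, so that the proteins limit their own mRNA. In colorectal and other cancers SRSF1, SRSF3 and SRSF6 are known as growth-promoting splicing factors.

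With 1 library per group there were no replicates, so no difference could be tested and no p-value is given. The KO-labelled library held 16406308 counts and the control 21881122, and levels are given as CPM, a gene's counts per 1000000 counts of its library. Ratios are KO-labelled over control, with an exact 95% interval that covers counting error only. ERV3-1, the gene of the HERV-R envelope, had 125 counts (7.62 CPM) in the KO-labelled library and 127 (5.80 CPM) in the control, a ratio of 1.31 (1.02 to 1.69). Under the symbol ERV3-1-ZNF117 there were 174 counts in the KO-labelled library and 220 in the control, and under ZNF117 46 and 0. Whether the edit would change such totals was not tested, so these values are no check of the edit. The directions given here depend on the labels being right. Of the colon epithelial markers, EPCAM had 750 CPM in the KO-labelled library and 701 in the control, and CDH17 had 162 and 167 CPM, while KRT20 and CDX1 were at 0 counts in both. KRT18 was 2.85-fold and KRT19 2.44-fold lower in the KO-labelled library, and CDX2 was higher (298 CPM, against 99.4 in the control). Marker lists of other cell types were near 0. The 8 fibroblast markers summed to 2.80 CPM in the KO-labelled library and 5.76 in the control, the 8 blood markers to 1.34 and 2.65 CPM, and the 4 endothelial markers to 0.427 and 0.640 CPM. PDGFRB (2.32 CPM in the KO-labelled library, 4.66 in the control) and CD68 (0.914 and 2.47 CPM) made up most of the fibroblast and blood sums, and COL1A2, DCN, PTPRC and CD3E were at 0 in both libraries. The part of these markers in the SR values was not tested.

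SR mRNA was more abundant in the KO-labelled library, and most of the difference lay in SRSF1, SRSF2, SRSF3, SRSF6, SRSF7 and SRSF10. These 6 of the 10 genes were at least 2-fold higher, none was 2-fold lower, and SRSF4 alone had a ratio below 1, joined by SRSF11 with each other scaling of the libraries. In the background of 12644 genes that averaged 1 CPM or more, 6.78% (857) were 2-fold higher or beyond and 5.69% (719) were 2-fold lower or beyond, a ratio being called 2-fold on log2 values with 1 CPM added. The median log2 ratio of the 10 SR genes was 1.14, against 0.12 over all compared genes. Because the genes were picked with this contrast in view, nothing is read from their count beyond the values themselves. In bulk RNA, fewer cells that express a gene and less RNA per cell cannot be told apart.

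**Figure D1:**
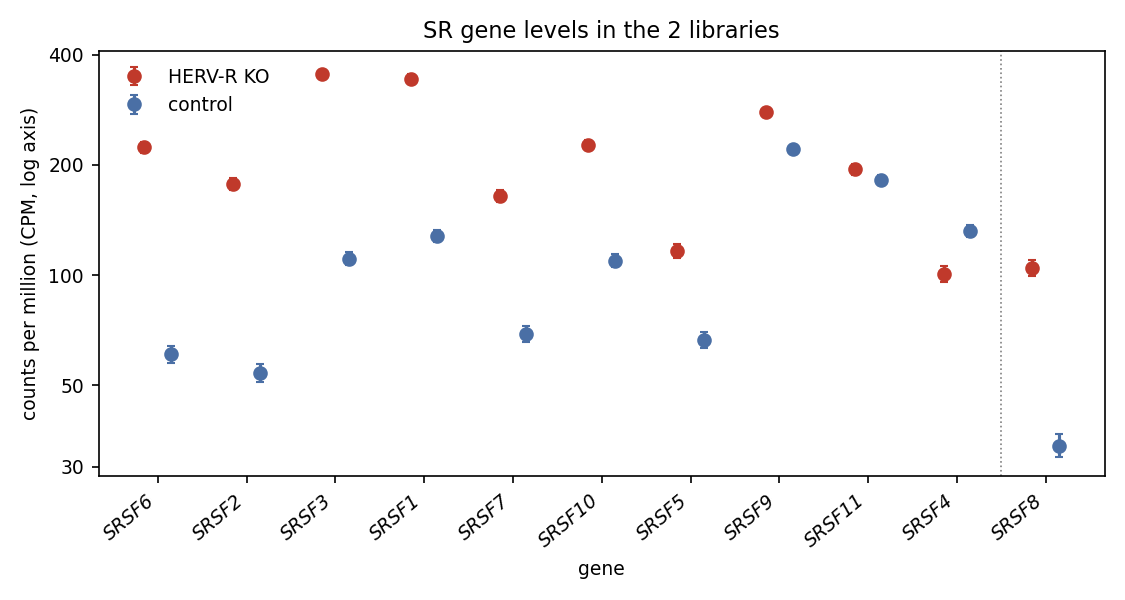
Level of each SR gene in CPM (log axis) in the KO-labelled library (red, left) and the control (blue, right), with exact 95% Poisson intervals for counting error, 1 library each. SRSF6, SRSF2 and SRSF3 show the widest gaps, SRSF11 shows nearly none, and SRSF4 is the one gene with the red point below the blue. SRSF8, right of the dotted line, belongs to the SR family but not to the 10 genes.

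The 10 genes together had 35744 counts in the KO-labelled library and 24784 in the control. This was 0.218% of all counts in the KO-labelled library (exact binomial 95% interval 0.216 to 0.220) and 0.113% in the control (0.112 to 0.115), a ratio of 1.92 (1.89 to 1.95). The 6 genes past the rule summed to 1489 CPM in the KO-labelled library and 532 CPM in the control, a ratio of 2.80 (2.74 to 2.86), which follows from how they were grouped. The other 4, SRSF4, SRSF5, SRSF9 and SRSF11, summed to 690 and 601 CPM.

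The sharpest contrast stood within the subgroup of SRSF4, SRSF5 and SRSF6, close relatives that each carry a pair of RNA recognition motifs. Gene coordinates are those of GENCODE 29 on GRCh38. SRSF6 (chr20:43457928-43464247, plus strand), which regulates alternative splicing and keratinocyte and tumour growth, had 3663 counts (223 CPM) in the KO-labelled library and 1329 (60.7 CPM) in the control. Its ratio of 3.68 (3.45 to 3.92) put it at place 54 of the 12644 genes, counted from the highest ratio. SRSF4 (chr1:29147743-29181987, minus strand), which has a long RS domain, had 1650 counts (101 CPM) in the KO-labelled library and 2886 (132 CPM) in the control. It was 1.31-fold lower (1.23 to 1.39), and 20.2% of the compared genes had a lower ratio. SRSF5 (chr14:69726900-69772005, plus strand), the other member of the subgroup, had 1912 counts (117 CPM) and 1454 counts (66.4 CPM) in the KO-labelled library and the control. Its ratio of 1.75 (1.64 to 1.88) fell short of the 2-fold rule.

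Counts of relatives within 1 library can be set against each other without any scaling between libraries. SRSF6 had 2.22 counts for each SRSF4 count in the KO-labelled library (2.09 to 2.35) and 0.460 in the control (0.431 to 0.492). The ratio of SRSF6 to SRSF4 counts was thus 4.82 times as high in the KO-labelled library (4.41 to 5.27), and that of SRSF5 to SRSF4 was 2.30 times as high (2.10 to 2.52). The order of the SRSF4 and SRSF6 counts was opposite in the 2 libraries. Their coding sequences in GENCODE 29 were 71.1% identical over the shorter one, at place 3 of 66 pairs in the family. Words of 50 bases were taken from the principal transcript of each gene only. That of SRSF4 shared none with any other gene's transcripts. SRSF4 was, however, among the 174 genes with a transcript that shared words with the principal transcript of SRSF10. In all, 7.27% of the SRSF10 words were shared, so this sharing was not particular to the SR family.

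SRSF1 and SRSF9, the next pair of relatives, also differed from each other. SRSF1 (chr17:58003360-58007346, minus strand), the prototype SR protein and a known proto-oncogene, had 5643 counts (344 CPM) in the KO-labelled library and 2795 (128 CPM) in the control, a ratio of 2.69 (2.57 to 2.82). SRSF9 (chr12:120461668-120469793, minus strand), which has a shorter RS domain, had 4569 counts (278 CPM) in the KO-labelled library and 4825 (221 CPM) in the control, a ratio of 1.26 (1.21 to 1.32). The KO-labelled library held more SRSF1 than SRSF9 counts, and the control held fewer. There were 1.24 SRSF1 counts for each SRSF9 count in the KO-labelled library and 0.579 in the control, a ratio of ratios of 2.13 (2.01 to 2.27).

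SRSF3 and SRSF7, both adaptors of the mRNA export receptor NXF1, were both higher. SRSF3 (chr6:36594353-36605600, plus strand), the smallest SR protein, had 5802 counts (354 CPM) in the KO-labelled library and 2425 (111 CPM) in the control. Its ratio was 3.19 (3.04 to 3.35), at place 97 of 12644. SRSF7 (chr2:38743599-38751494, minus strand), which carries a zinc knuckle besides its RNA recognition motif, had 2696 counts (164 CPM) in the KO-labelled library and 1510 (69.0 CPM) in the control, a ratio of 2.38 (2.24 to 2.54). The gap between the relatives was smaller here, with a ratio of ratios of 1.34 (1.24 to 1.45) for SRSF3 to SRSF7.

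SRSF2 and its retrocopy SRSF8 had similar ratios. SRSF2 (chr17:76734115-76737374, minus strand), which recognises exonic enhancers and stays largely in the nucleus, had 2908 counts (177 CPM) in the KO-labelled library and 1181 (54.0 CPM) in the control, a ratio of 3.28 (3.07 to 3.52) at place 89 of 12644. SRSF8 (chr11:95067197-95071224, plus strand), the intronless relative outside the 10 genes, had 1715 counts (105 CPM) and 749 counts (34.2 CPM) in the KO-labelled library and the control, a ratio of 3.05 (2.80 to 3.33). The count ratio of SRSF2 to SRSF8 was 1.70 in the KO-labelled library and 1.58 in the control, and the interval of the difference between them, a factor of 1.08, ran from 0.962 to 1.20 and included 1. Their coding sequences were the most alike of the 66 pairs (83.6% identical), and no 50-base word of the SRSF2 transcript occurred in SRSF8.

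SRSF10 and SRSF11 are less typical members. SRSF10 (chr1:23964804-23980927, minus strand), which becomes a splicing repressor when dephosphorylated in heat shock, had 3714 counts (226 CPM) in the KO-labelled library and 2393 (109 CPM) in the control. Its ratio of 2.07 had an interval that included 2 (1.97 to 2.18), and it fell below the rule with each other scaling, at log2 ratios of 0.89 to 0.92. SRSF11 (chr1:70205682-70253052, plus strand), an RS protein that interacts with spliceosome components, had 3187 counts (194 CPM) in the KO-labelled library and 3986 (182 CPM) in the control, a ratio of 1.07 (1.02 to 1.12). Of all compared genes 48.1% had a lower ratio than SRSF11, so it lay at their middle, and its direction turned with each other scaling (log2 ratios of -0.07 to -0.03, against 0.09 with library totals). SRSF12, the relative of SRSF10, had 0 counts in the KO-labelled library, which allows up to 0.183 CPM, and 1 count in the control.

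**Figure D2:**
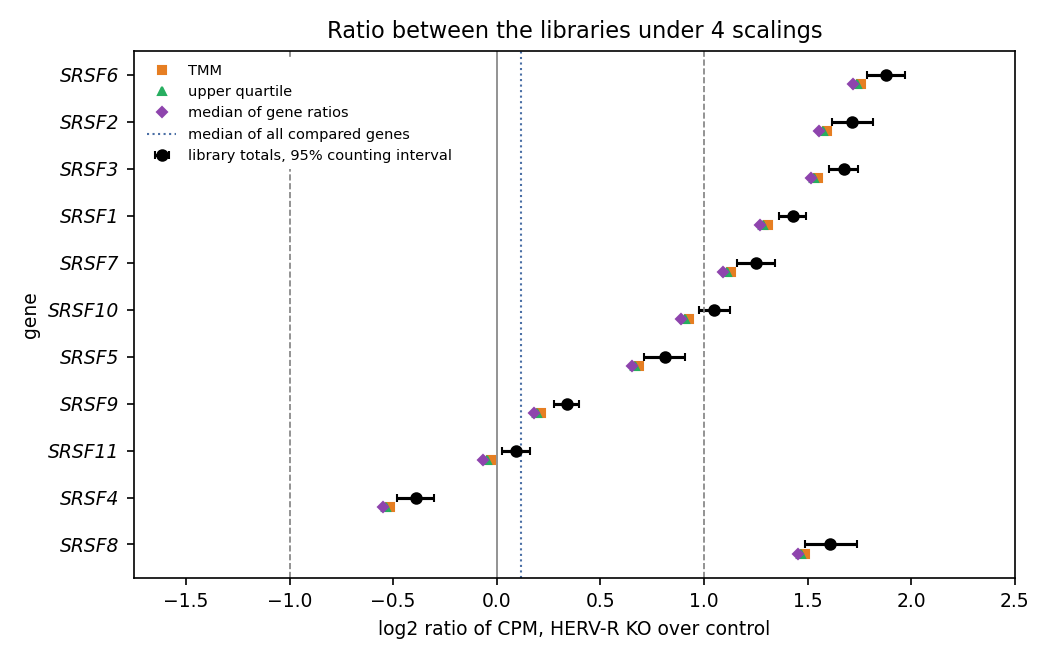
Log2 ratio of CPM, KO-labelled library over control, for each SR gene. Black points use library totals with exact 95% counting intervals, coloured marks the 3 other scalings, dashed lines mark 2-fold and the dotted line the median of all compared genes. Each other scaling moves all genes left by the same amount, which takes SRSF10 below 2-fold and puts SRSF11 on the other side of 0.

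The scaling of the libraries bears on these counts. The trimmed mean of M values (TMM), the upper quartile and the median of gene ratios shift every log2 ratio by -0.12, -0.14 and -0.16, close to the size of the all-gene median. With each of them 5 SR genes were at least 2-fold higher and 0 lower, where 4.75%, 4.54% and 4.3% of all genes were higher and 6.95%, 7.25% and 7.47% lower. The balance of all genes past the rule shifted too. Higher genes made up 54.4% of them by library totals (857 of them, beside 719 lower), 40.6% by TMM (601 beside 879), 38.5% by upper quartile (574 beside 917) and 36.5% by gene-ratio median (544 beside 945). SRSF6, SRSF2, SRSF3, SRSF1 and SRSF7 stood above 2-fold and SRSF4 below 0 with all 4 scalings. Relative to the all-gene median with library totals, SRSF6 was at a log2 ratio of 1.74, SRSF9 at 0.22, SRSF11 at -0.03 and SRSF4 at -0.51. A 3-fold rule was passed by SRSF2, SRSF3 and SRSF6 (3 of 10), where 0.933% of all genes were higher and 1.81% lower, and a 1.5-fold rule also by SRSF5 (7 of 10), where 20.3% were higher and 13.2% lower. The 6 genes of the 2-fold rule also passed it with other pseudocounts and filters. The background was then 8.89% higher and 7.02% lower with 0.1 CPM added, and 3.37% and 2.93% with 5 CPM added. It was 4.07% higher and 3.54% lower without a filter, 6.57% and 4.67% at a minimum mean of 5 CPM, and 4.76% and 3.66% at 50 CPM, a minimum chosen after seeing the data.

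**Figure D3:**
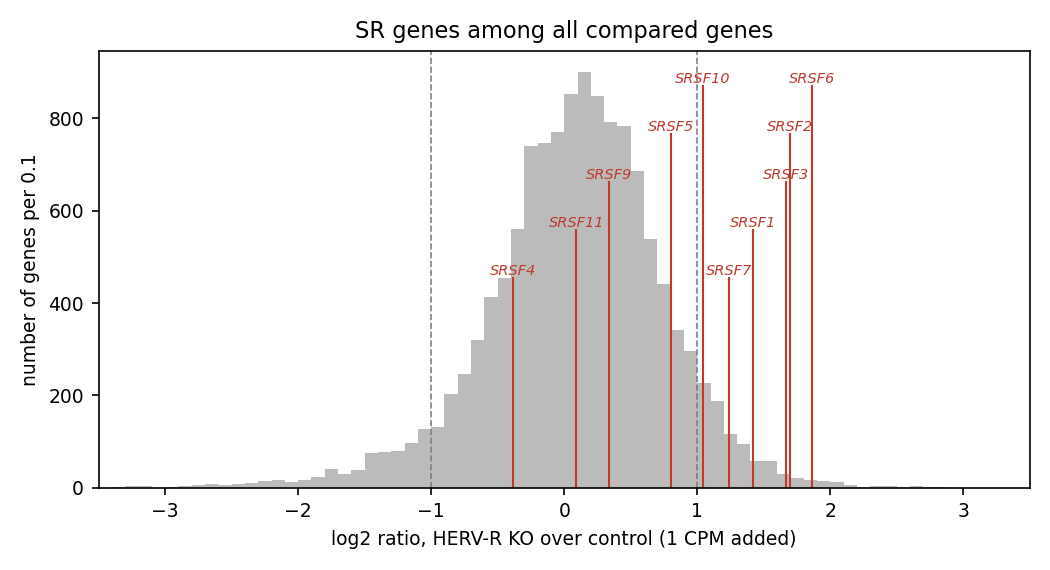
Distribution of the log2 ratio (KO-labelled over control, 1 CPM added) over the 12644 compared genes in grey, with the 10 SR genes as red lines of arbitrary height and the 2-fold limits dashed. SRSF4 and SRSF11 lie inside the bulk of genes, while SRSF1, SRSF2, SRSF3 and SRSF6 lie in its right tail, with log2 ratios of 1.42 to 1.86.

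Within the SR counts the composition changed, a measure that no scaling between the libraries can alter. SRSF3 made up 16.2% of the 10 genes' counts in the KO-labelled library (15.9 to 16.6) and 9.78% in the control (9.42 to 10.2). SRSF6 made up 10.2% (9.94 to 10.6) and 5.36% (5.09 to 5.65), and SRSF1 15.8% and 11.3%, in the KO-labelled library and the control. Shares were lower in the KO-labelled library for SRSF11 (8.92% against 16.1% in the control), SRSF4 (4.62% against 11.6%) and SRSF9 (12.8% against 19.5%). SRSF5 (5.35% against 5.87% in the control) and SRSF10 (10.4% against 9.66%) moved by less than 1 percentage point. The 6 genes past the rule together held 68.3% of SR counts in the KO-labelled library (67.9 to 68.8) and 46.9% in the control (46.3 to 47.6). This difference follows from how they were grouped. Shares depend on one another, so a lower share need not be a lower level. With library totals the CPM ratios of SRSF9 and SRSF11 were 1.26 and 1.07.

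**Figure D4:**
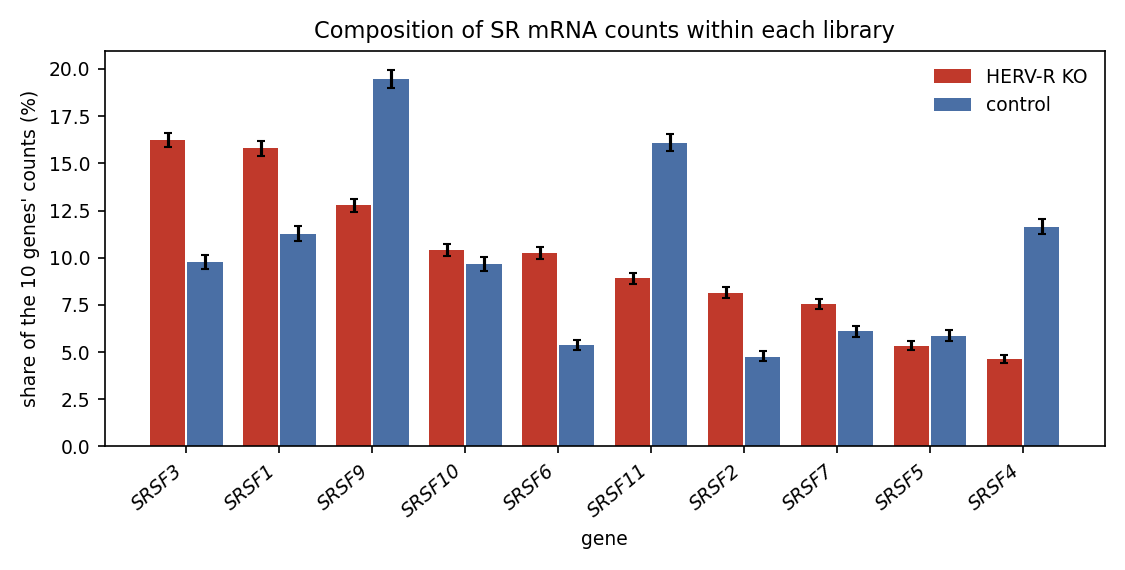
Share of each gene in the summed counts of the 10 SR genes, KO-labelled library (red, left) and control (blue, right), with exact 95% binomial intervals for counting error, 1 library each. SRSF3, SRSF1, SRSF6 and SRSF2 take larger shares in the KO-labelled library, and SRSF9, SRSF11 and SRSF4 smaller ones.

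Levels of different genes were compared per length, as CPM per kilobase of the principal GENCODE 29 transcript. On this scale SRSF9 stood first with 232 CPM per kilobase in the KO-labelled library and 184 in the control, and SRSF1 took place 2 with 227 and 84.4. SRSF10 took place 3 in both libraries, with 139 and 67.1 CPM per kilobase. SRSF6 came last in the control, at 14.0 CPM per kilobase, and took place 7 in the KO-labelled library, at 51.6. SRSF4 went the other way, at place 9 in the KO-labelled library (42.1) and place 4 in the control (55.3). Over the union of all annotated exons SRSF1 stood first in the KO-labelled library (103 CPM per kilobase) and SRSF9 in the control (58.9), while SRSF10 took places 8 and 10. SRSF6 then took place 5 in the KO-labelled library (48.6) and place 8 in the control (13.2), and SRSF4 place 10 in the KO-labelled library (11.3) and place 7 in the control (14.8). The last place changed in both libraries and the first place only in the KO-labelled library, so the order of the genes depends on the length used.

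The promoters of the 3 genes with the highest ratios that have an entry, and of SRSF4, the gene with the lowest ratio, are shown as the most different of the family. The sequences are RefSeq's, GRCh38.p14, each 5′ to 3′ from 250 bases before to 50 bases after the annotated start. Of the 10 genes 9 matched, all but SRSF2. Capitals mark matches, on either strand, to CCAAT (known as the CCAAT box), GGGCGG (GC box), TGACGT (core of the cAMP response element, CRE), CACGTG (E-box), CCGGAA (ETS factor core), GCATGCGC (NRF1), TATAAA (letters of the TATA box) and CCATNTT (YY1), and no matches overlap in these 4 windows.
SRSF6, chr20:43457646-43457945, plus strand: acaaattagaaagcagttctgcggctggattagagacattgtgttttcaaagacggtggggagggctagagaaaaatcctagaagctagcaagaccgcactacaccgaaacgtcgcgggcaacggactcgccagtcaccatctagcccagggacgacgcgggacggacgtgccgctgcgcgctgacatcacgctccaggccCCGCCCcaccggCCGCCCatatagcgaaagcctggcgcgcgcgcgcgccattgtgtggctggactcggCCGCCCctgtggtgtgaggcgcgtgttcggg
SRSF3, chr6:36594112-36594411, plus strand: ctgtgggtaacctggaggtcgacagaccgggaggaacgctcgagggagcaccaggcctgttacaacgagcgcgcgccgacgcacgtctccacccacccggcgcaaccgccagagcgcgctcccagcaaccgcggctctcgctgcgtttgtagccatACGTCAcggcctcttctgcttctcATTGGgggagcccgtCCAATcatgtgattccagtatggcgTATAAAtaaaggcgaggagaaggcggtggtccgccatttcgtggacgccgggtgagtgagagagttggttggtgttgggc
SRSF1, chr17:58007197-58007496, minus strand: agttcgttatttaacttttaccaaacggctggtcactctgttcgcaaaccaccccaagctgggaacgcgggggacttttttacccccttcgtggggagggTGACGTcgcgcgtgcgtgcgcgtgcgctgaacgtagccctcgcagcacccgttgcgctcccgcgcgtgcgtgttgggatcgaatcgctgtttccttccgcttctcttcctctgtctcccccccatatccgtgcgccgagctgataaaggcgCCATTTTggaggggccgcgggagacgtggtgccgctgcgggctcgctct
SRSF4, chr1:29181851-29182150, minus strand: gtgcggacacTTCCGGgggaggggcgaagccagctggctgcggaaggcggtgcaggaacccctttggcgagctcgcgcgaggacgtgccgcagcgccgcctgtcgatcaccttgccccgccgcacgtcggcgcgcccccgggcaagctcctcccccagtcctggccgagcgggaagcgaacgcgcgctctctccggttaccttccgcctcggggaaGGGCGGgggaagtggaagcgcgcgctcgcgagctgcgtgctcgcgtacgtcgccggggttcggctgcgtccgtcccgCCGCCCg

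No motif searched was common to these 4 promoters. SRSF6 and SRSF4, at opposite ends of the family by ratio, both held GC boxes, 3 and 2 of them, and SRSF4 also an ETS core. SRSF3 held a TATA box, a CRE core and 2 CCAAT boxes on opposite strands, and SRSF1 a CRE core and a YY1 match. The 9 genes had 11 windows, since SRSF7 and SRSF11 had a second one, and a gene counted if any of its windows held the match. Over the 9 genes the CRE core occurred in 3 (SRSF1, SRSF3 and SRSF5), against 14.5% of 9370 compared genes with an entry and 7.98% of all 35116 promoter windows. The GC box occurred in 4 of the 9, against 77.7% of the compared genes and 45.0% of all windows, and the CCAAT box in SRSF3 alone, against 43.3% and 34.6%. The TATA box was found in 3 (7.89% of compared genes, 11.5% of windows), and the NRF1 (6.55% and 3.05%), ETS (35.8% and 17.2%) and YY1 (20.5% and 15.6%) motifs in 2 each. For SRSF11 the TATA and GC boxes lay only in chr1:70221130-70221429, and its window at the gene start, chr1:70205446-70205745, had 0 matches. For SRSF7 the TATA box and NRF1 match lay only in chr2:38751312-38751611. The E-box was found in 0 (12.6% and 7.26%). These are matches of letters in windows of 300 bases, not sites shown to be bound.

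The 10 genes share a feature of their annotation that did not enter the choice. Each has at least 1 GENCODE 29 transcript typed as a target of nonsense-mediated decay, from 1 in SRSF5, SRSF6 and SRSF9 to 6 in SRSF7, against 44.1% of 11227 compared protein-coding genes. SRSF8 and SRSF12, outside the 10 genes, have 1 and 2 such transcripts, so the feature is not particular to the 10. The 10 genes have from 2 (SRSF6) to 19 (SRSF5) annotated transcripts, a number for which the background was not matched. Retained-intron transcripts are annotated for 8 of the 10, against 58.6%. Counts per gene add such transcripts to the coding ones, so the values here do not show how much of each SR mRNA was productive.

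A pair of SR genes overlaps a measured neighbour on the other strand. MFSD11, which overlaps SRSF2, had 21.9 CPM in the KO-labelled library and 16.4 in the control, a ratio of 1.34 (1.16 to 1.56) against 3.28 for SRSF2. GATC, which overlaps SRSF9, had 72.5 and 61.1 CPM, a ratio of 1.19 (1.10 to 1.28). The sources used here do not say whether counting used strand, and 29.5% of the 50-base words of SRSF2 and 38.9% of those of SRSF9 also occur in those neighbours. For SRSF1 the share was 91.9%, all of it with 2 overlapping GENCODE entries that have no row in the tables, and for SRSF6 6.41%. The others had 0 to 7.27%, and the 5 SRSF-named pseudogenes in the tables summed to 14 counts in the KO-labelled library and 20 in the control.

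Genes that start within 1000 bases of an SR gene on the opposite strand gave ratios of their own. GEMIN6, which begins 40 bases from SRSF7 and encodes a subunit of the SMN complex, had 14.5 CPM in the KO-labelled library and 12.0 in the control, a ratio of 1.21 (1.01 to 1.44) against 2.38 for SRSF7. DYNLL1, a dynein light chain gene 57 bases from the SRSF9 start, had 187 and 116 CPM, a ratio of 1.61 (1.53 to 1.70) against 1.26 for SRSF9. LRRC40, 62 bases from the SRSF11 start, had a ratio of 1.06 (0.973 to 1.16) beside 1.07 for SRSF11.

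The modifiers and partners of the SR proteins were taken from lists that had been drawn up with earlier results of these libraries known. Of 9 measured TRA2 factors and SR protein kinases 1 was at least 2-fold higher, 2 were lower and 6 between (median log2 ratio 0.33), where 6.78% of all compared genes were higher and 5.69% lower. The splicing enhancer factor TRA2A was 2.40-fold higher (118 CPM in the KO-labelled library, 49.1 in the control). CLK1 and CLK3, kinases of the RS domain, were 2.35-fold (42.5 against 99.9 CPM in the control) and 2.18-fold lower (46.2 against 101 CPM). CLK4 (11.3 against 23.1 CPM in the control) was 2.04-fold lower without a pseudocount and fell just short of the rule with 1 CPM added. With each other scaling CLK4 passed, so that 3 of this list were lower. The share of all genes lower was then 6.95% (TMM) to 7.47% (median of gene ratios). With library totals and 0.1 CPM added, 3 of the list were also lower, beside 7.02% of all genes.

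Among 26 genes for proteins with RS repeats outside the SRSF family, 3 were higher, 0 lower and 23 in between (median 0.41), beside 6.78% higher and 5.69% lower over all genes. With each other scaling 2 of them passed the rule, where 4.3% to 4.75% of all genes were higher. THRAP3 and BCLAF1, related RS-rich proteins of nuclear RNA processing, were 2.94-fold (2.78 to 3.11) and 2.90-fold higher (2.75 to 3.07). A list of 17 compared genes held those for U1, U2 and U2AF, which SR proteins bring to the splice sites, and the branch point binder SF1. Of these 1 was higher, 0 lower and 16 between (median 0.35), a share near the 6.78% of all genes. It was SF1 (425 CPM in the KO-labelled library, 203 in the control, 2.09-fold), so no compared U1, U2 or U2AF gene passed. SF1 lost the rule with each other scaling. U2AF1, with 3 counts in the KO-labelled library and 4 in the control, averaged below 1 CPM and is not among the 17. Of 22 hnRNP genes, whose products often act against SR proteins, 3 were higher, 0 lower and 19 between (median 0.41), led by HNRNPM (7.07-fold) and HNRNPU (927 CPM in the KO-labelled library, 309 in the control). The all-gene share higher was again 6.78%, and with each other scaling 2 hnRNP genes passed, beside 4.3% to 4.75% of all genes.

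Of 17 genes of nonsense-mediated decay and the exon junction complex, 2 were higher, 0 lower and 15 in between, where 6.78% of all genes were higher and 5.69% lower. Their median, 0.58, was the highest of these partner lists. The helicase DHX34 (2.18-fold) and the exon junction subunit RBM8A (2.05-fold) both lost the rule with each other scaling, where 4.3% to 4.75% of all genes were higher. Of 14 mRNA export genes, 4 were higher, 0 lower and 10 between (median 0.41), with DDX39A 6.32-fold (5.64 to 7.08) and THOC1 3.07-fold higher (2.74 to 3.44), against the same 6.78% and 5.69% of all genes. By TMM or upper quartile 3 export genes passed the rule (4.75% and 4.54% of all genes higher), and by gene-ratio median 2 (4.3%). In each of these lists a smaller part of the genes passed the rule than in the SR genes, whose members were chosen with their values known, so that the shares cannot be weighed against each other.

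**Figure D5:**
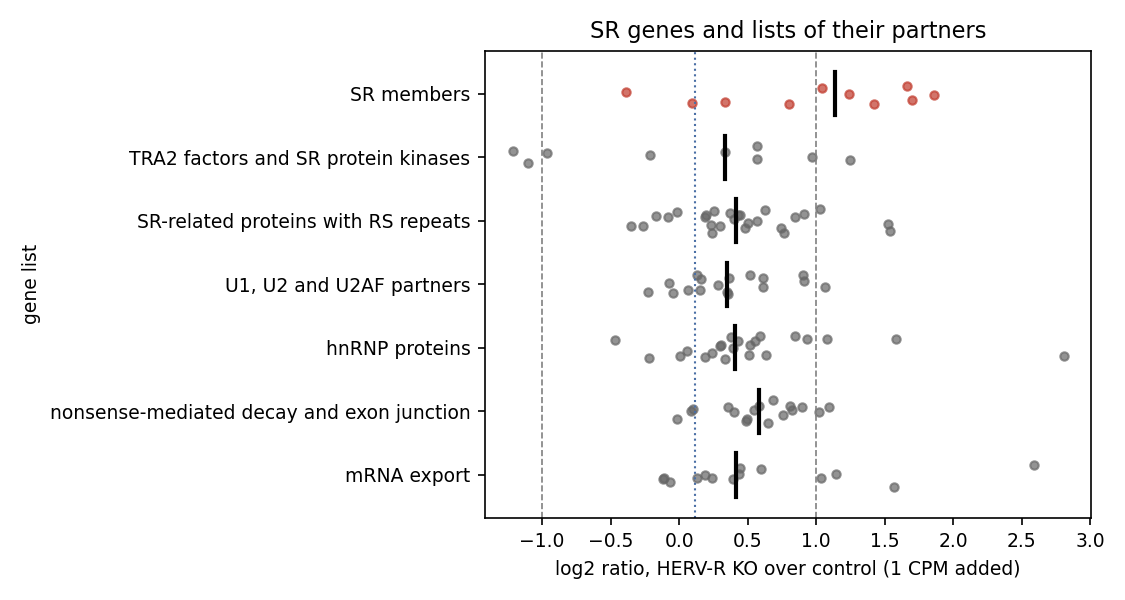
Log2 ratio (KO-labelled over control, 1 CPM added) of each measured gene in the SR group (red) and in lists of their partners (grey), with black bars at each list's median, dashed lines at 2-fold and the dotted line at the median of all compared genes. The SR median is 1.14, and the other lists have medians of 0.33 to 0.58.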

How the data were processed

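The authors deposited raw counts per gene symbol, as unnormalized whole numbers, in 1 table for each library. TopHat and GRCh38 are named by the submitters' processing notes, and a directional kit per the labels' protocols. The sources used here do not give the counting program, annotation, use of strand or read filters. Each table held 58173 rows, and rows of 1 symbol were summed. Counts were scaled by library total (16406308 in the KO-labelled library, 21881122 in the control), so 1 count is 0.0610 and 0.0457 CPM. Genes averaging 1 CPM or more were compared, and with 1 CPM added a gene passed the rule at log2 ratios from 1 upward or from -1 downward. Single-gene ratios have no pseudocount. Intervals are exact at 95%. They are Clopper-Pearson for shares and ratios (for ratios conditional on the summed count), and Poisson for levels. For ratios of ratios they are those of the conditional odds ratio. These intervals and the floor of 3 counts for a count of 0 cover counting error only, and PCR duplicates would make them too narrow.

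The members and lists were chosen with earlier results of these data known. All 10 members are named, and of each other list the 2 highest and 2 lowest genes past the rule. Alternatives were other pseudocounts, filters, fold rules and scalings from edgeR 4.0.16 and DESeq2 1.42.0, used for scaling factors only. Other steps used Python 3.11.15 and SciPy 1.17.1. The fold rule and the intervals of single-gene ratios were tested on simulated counts with counting error only, and the remaining steps were not.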

Additional observations from a re-analysis of the deposited data

How the results depend on the processing

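With library totals 6 SR genes were at least 2-fold higher and 0 lower. Under pseudocounts of 0.1 and 5 CPM, no filter, and minimum means of 5 and (chosen after seeing the data) 50 CPM, these were also 6 and 0. They were 5 and 0 under each other scaling, 7 and 0 at 1.5-fold and 3 and 0 at 3-fold. Over all genes, the numbers higher and lower were 426 and 371 with a pseudocount of 5, 2567 and 1674 at 1.5-fold, 118 and 229 at 3-fold, and 222 and 171 with a minimum mean of 50 CPM. With the median of gene ratios 544 were higher. Without ribosomal RNA in the total, the SR share was 0.226% in the KO-labelled library and 0.118% in the control, and the ratio 1.91. No paired analysis was possible because there was 1 library per group, and for the same reason no library could be left out. Counting error is small at this depth, and the spread between cultures or clones is unknown.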

Other observations

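Some genes of the same lists had very few counts, and these values were singled out after they were seen. U2AF1 had 3 counts in the KO-labelled library and 4 in the control, and the export gene DDX39B 11 and 14. Both averaged below 1 CPM and were not compared. HNRNPL had 46 counts in the KO-labelled library and 58 in the control, and HNRNPR 30 and 18. The nuclear speckle RNA MALAT1 had 36 and 55 counts (2.19 CPM in the KO-labelled library, 2.51 in the control), whereas the paraspeckle RNA NEAT1 had 2048 and 2395. The part of read counting or library preparation in these values was not tested. The lowest count of an SR gene was 1650 in the KO-labelled library (SRSF4) and 1181 in the control (SRSF2).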
